A study of Mus musculus with 4 samples.

Results

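Elastic fibre and matricellular proteins belong to the extracellular matrix, and RNA-seq of epididymal adipose tissue, a visceral fat depot, was used here to examine the expression of their genes. The 10 genes, Eln, Fbn1, Lox, Loxl1, Fn1, Sparc, Postn, Tnc, Thbs1 and Thbs2, were chosen by symbol, and all 10 were found among the 24421 genes of the deposited matrices. Male C57BL/6J mice of wild-type genotype were used in both groups. The weight-cycling group (WC1) was 8 weeks old when high-fat diet (HFD) began and ate it for 8 weeks, with 2 weeks of standard diet before a second HFD period of 6 weeks. The high-fat control group (Ctrl) began HFD at an age of 10 weeks and had no break, so that both groups had 14 weeks of HFD in all and were 24 weeks old at the end. Each group had 2 libraries and no lean group was included. The labels do not say whether a library came from 1 mouse or from a pool, so the p-values measure only the spread between these libraries. Between 61465029 and 90965297 reads per library were recovered from the matrix, and no library was a copy of its replicate, since their reads differed by more than sampling noise.

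Elastic fibres are built by depositing elastin, the product of Eln, on microfibrils of fibrillin-1, the product of Fbn1. The copper-dependent lysyl oxidases encoded by Lox and Loxl1 then crosslink elastin, and Lox also crosslinks collagen. Fibronectin, the product of Fn1, forms the early fibrillar scaffold on which other matrix proteins assemble. Matricellular proteins such as osteonectin (Sparc), periostin (Postn), tenascin-C (Tnc) and the thrombospondins (Thbs1 and Thbs2) bind the matrix and cell receptors and are known for their regulation during tissue remodeling and fibrosis rather than for bulk structure. In adipose tissue they are made mainly by fibroblasts and adipocyte progenitors, vascular cells and, for some members, macrophages or adipocytes.

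Sequence upstream of the transcription start was read from the RefSeq table for GRCm38.p6, the same assembly as mm10, which held 5 of the 10 genes (Sparc, Tnc, Postn, Thbs2 and Fbn1). The 150 bases before the start are shown for the members with the largest rises (Tnc and Sparc), for the member that fell (Postn) and for Thbs2, which did not pass the test. All 4 are written 5′ to 3′ on the strand of the gene. They lie at chr4:64047016-64047165 (minus strand, the upstream one of the Tnc starts), chr11:55420081-55420230 (minus strand), chr3:54360957-54361106 (plus strand, the downstream one of the Postn starts) and chr17:14694263-14694412 (minus strand). Capitals mark matches, on either strand, to the TATA box TATAAA, the GC box GGGCGG, the AP-1 site TGANTCA, the CCAAT box, the TEAD site GGAATG or the CAGA box CAGACA that SMAD proteins bind.
Tnc: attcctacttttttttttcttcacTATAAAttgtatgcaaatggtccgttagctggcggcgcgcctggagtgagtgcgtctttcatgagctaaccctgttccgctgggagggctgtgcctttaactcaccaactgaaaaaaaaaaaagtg
Sparc: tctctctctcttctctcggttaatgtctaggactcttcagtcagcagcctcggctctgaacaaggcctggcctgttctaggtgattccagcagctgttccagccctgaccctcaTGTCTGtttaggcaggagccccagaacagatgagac
Postn: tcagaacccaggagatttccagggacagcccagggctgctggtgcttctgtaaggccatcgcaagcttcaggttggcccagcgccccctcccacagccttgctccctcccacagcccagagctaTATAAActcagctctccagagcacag
Thbs2: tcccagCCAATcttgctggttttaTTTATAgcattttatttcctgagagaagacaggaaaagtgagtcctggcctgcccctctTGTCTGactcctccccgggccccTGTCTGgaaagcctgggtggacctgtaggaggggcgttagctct

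In the 250 bases before each start, TATAAA was found for 3 of the 5 genes. It began at -26 for the downstream start of Postn and at -126 for both the upstream start of Tnc and Thbs2. Here -1 is the last base before the start. Before the upstream start of Postn no TATAAA was found. CAGACA was found for 3 of the 5, at -36 for Sparc, at -67 and -44 for Thbs2 and, before the downstream start of Tnc, at -71. GGGCGG was found at -167 for Tnc and at -185 for Fbn1, and CCAAT at -186 and -144 for Thbs2, partly outside the stretch shown. TGANTCA and GGAATG were found in 0 of the 5. Among 32851 RefSeq windows of the same length, 12.4% held TATAAA, 17.1% CAGACA, 32.7% GGGCGG, 33.8% CCAAT, 6.75% TGANTCA and 12.6% GGAATG. These shares are per window, whereas for Tnc and Postn a match before either start was counted. The matches describe the letters of the windows only.

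The levels of the members were first compared with each other in TPM, which corrects for transcript length. Sparc was the most abundant member in all 4 libraries, at 945 and 1120.4 TPM in Ctrl and 2046 and 2431 TPM in WC1. Postn came next in both Ctrl libraries (701 and 614 TPM) ahead of Fn1 (338 and 370.2 TPM), whereas in both WC1 libraries Fn1 (542 and 397 TPM) was ahead of Postn (477 and 346 TPM). Fn1 and Postn were separated by less in WC1 than the WC1 libraries differed for either gene. Loxl1 and Fbn1 followed at between 100.3 and 137 TPM, and their order changed between libraries. Eln, Thbs1, Lox and Thbs2 lay between 28.7 and 118 TPM, and Tnc was the least abundant, at 6.30 and 7.24 TPM in Ctrl and 20 and 15.2 TPM in WC1. Summed over the 10 genes, the level was 2390.2 and 2545 TPM in Ctrl and 3663 and 3677 TPM in WC1. Sparc made up 39.5% and 44.0% of this sum in Ctrl against 55.9% and 66.1% in WC1, while the share of Postn was 29.3% and 24.1% in Ctrl against 13.0% and 9.40% in WC1. The members took between 0.490% and 0.702% of all reads in a library.

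**Figure D1:**
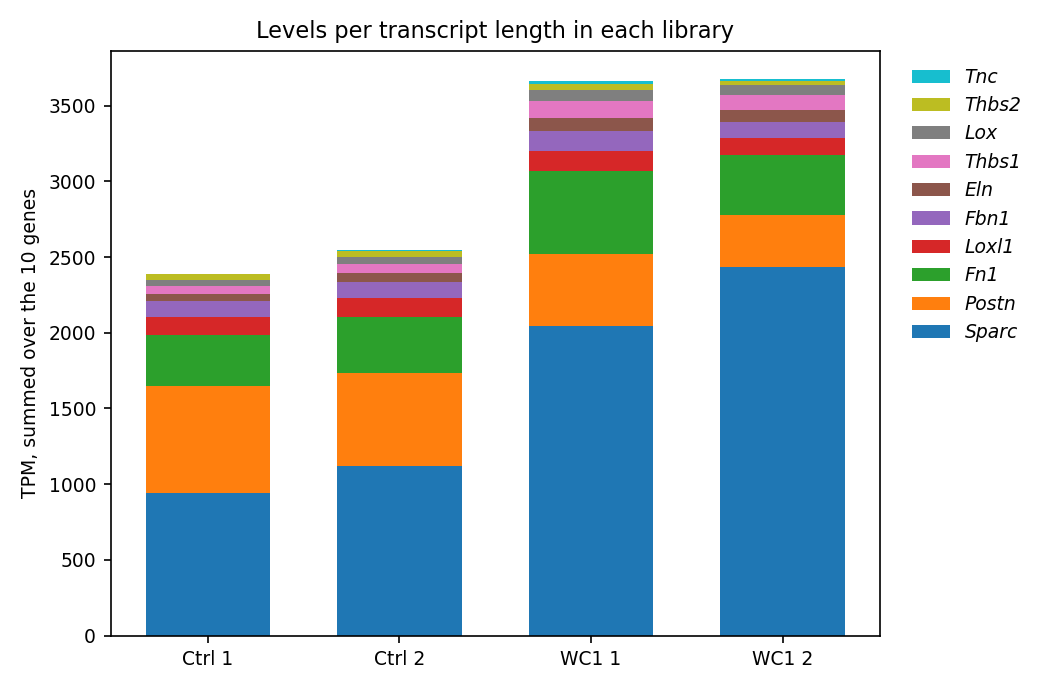
Stacked bars give the TPM of the 10 genes in each library, with a linear axis that starts at 0. The sum is 2390.2 and 2545 TPM in Ctrl and 3663 and 3677 TPM in WC1, and the Sparc segment is the largest in every library.

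Next, WC1 was compared with Ctrl to ask how the expression of these genes differed after weight cycling. The comparison was made in the matrix named CPM, with limma on log2(CPM + 1) over 14106 genes, and a gene was called at an adjusted p under 0.05. Of the 10 members, 5 rose in WC1 (Tnc, Sparc, Thbs1, Lox and Eln), 1 fell (Postn) and 4 were not called (Fn1, Fbn1, Loxl1 and Thbs2). These are values of bulk tissue, in which fewer cells of a type and less RNA per cell cannot be told apart. Over all tested genes, 10.2% were called higher and 7.71% called lower, and at an unadjusted p under 0.05 the shares were 18.9% and 18.9%. edgeR and DESeq2 also called 5 members higher and 1 lower, where edgeR called 10.5% of all genes higher and 7.14% lower and DESeq2 called 27.4% in either direction (15.1% higher and 12.3% lower). The median log2 fold change was 0.34 over the members and -0.02 over all tested genes. For 7 of the 10 members the groups did not overlap, 5 above and 2 below, where 69.3% of all tested genes did not overlap (32.7% above and 36.6% below). With 2 libraries in each group, an exact two-sided permutation test of a single gene cannot give a p below 0.333.

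**Figure D2:**
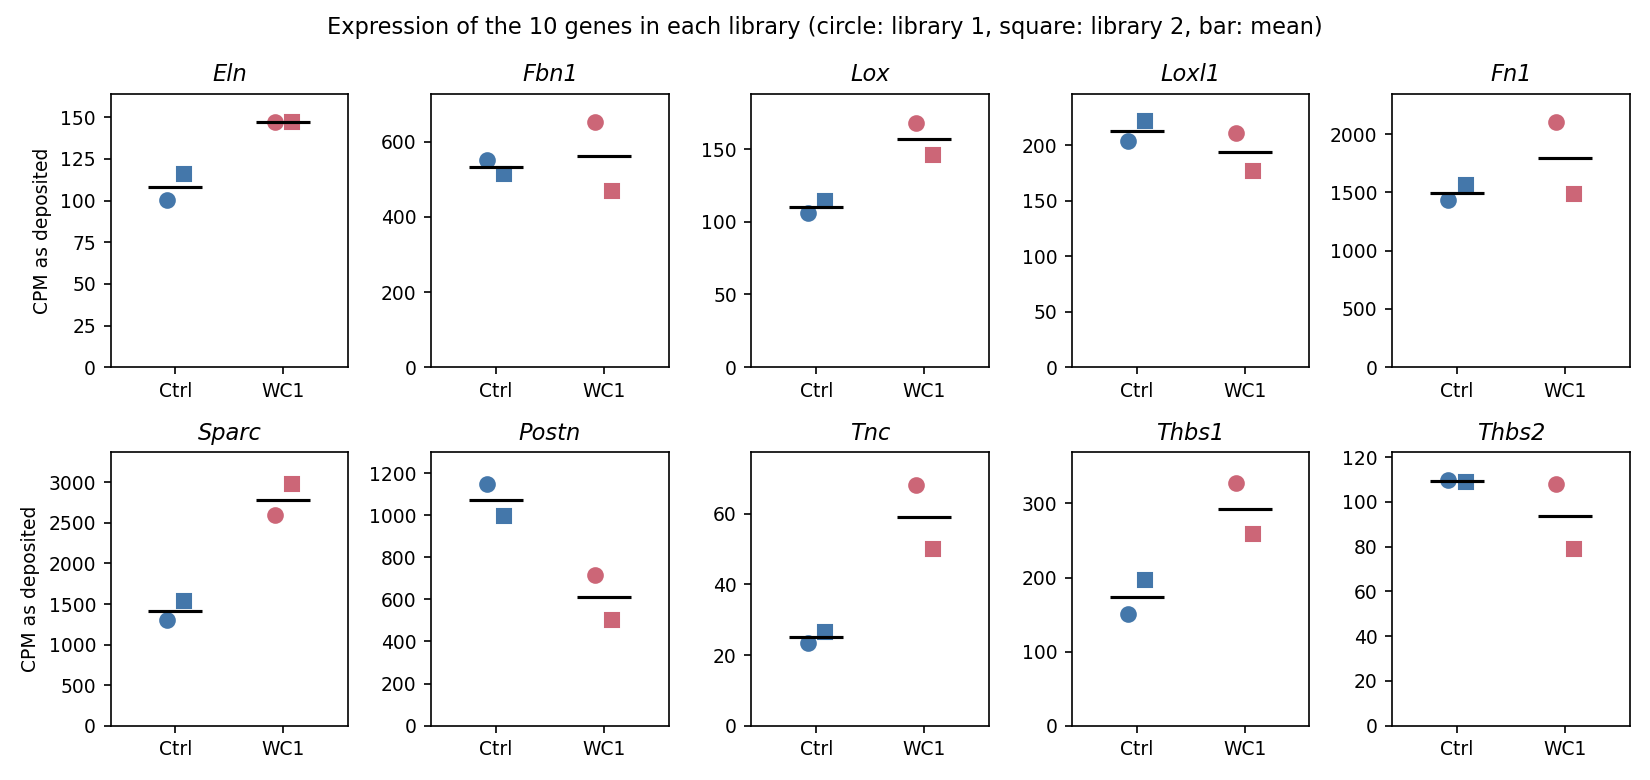
Each panel shows the CPM of a gene in the 4 libraries on a linear axis from 0, with circles for library 1, squares for library 2 and bars for the group mean. For Tnc, Sparc, Thbs1, Lox and Eln both WC1 points lie above both Ctrl points, and for Postn and Thbs2 both lie below.

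Among the genes of the elastic fibre itself, elastin rose while fibrillin-1 was not called. Eln (chr5:134702595-134747368) had 100.2 and 116 CPM in the Ctrl libraries against 147 and 147 CPM in the WC1 libraries. Both WC1 libraries were above both Ctrl libraries, and they differed from each other by less than the Ctrl libraries did. The mean was 108 ± 10.8 CPM in Ctrl and rose to 147 ± 0.0885 CPM in WC1 (± SD, n = 2 per group), which is 0.45 ± 0.09 (SE) in log2 fold change (adjusted p = 0.035 in limma). Fbn1 (chr2:125300594-125506485) had 550.2 and 514 CPM in the Ctrl libraries against 653 and 469 CPM in the WC1 libraries. The WC1 libraries lay above and below both Ctrl libraries, so the groups overlapped. The log2 fold change of Fbn1 was 0.06 ± 0.18 with a 95% interval from -0.40 to 0.51 (limma adjusted p = 0.84), which leaves room for a change of either sign. It was -0.18 without WC1 1 and 0.29 without WC1 2, so its sign rested on WC1 1. The ratio of Fbn1 to Eln in TPM was 2.10 and 1.70 in Ctrl and 1.69 and 1.22 in WC1.

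Of the crosslinking enzymes, Lox rose and its relative Loxl1 was not called. Lox had 106 and 114 CPM in the Ctrl libraries against 168 and 146 CPM in the WC1 libraries, with both WC1 libraries above both Ctrl libraries. The mean was 110.2 ± 5.50 CPM in Ctrl and rose to 157 ± 15.8 CPM in WC1 (± SD, n = 2 per group), which is 0.51 ± 0.10 (SE) in log2 fold change (adjusted p = 0.031 in limma). Loxl1 (chr9:58287723-58313212) had 204 and 222 CPM in the Ctrl libraries against 211 and 177 CPM in the WC1 libraries, where the first WC1 library lay between the Ctrl libraries. Its log2 fold change was -0.14 ± 0.11 with a 95% interval from -0.42 to 0.15 (limma adjusted p = 0.42). Without WC1 1 it was -0.27 and called (limma adjusted p = 0.049), and in TPM it was 0.0032, with the opposite sign. The ratio of Loxl1 to Lox in TPM was 2.75 and 2.85 in Ctrl and 1.84 and 1.77 in WC1, so Loxl1 remained the more abundant of the pair in every library. The ratio was lower in both WC1 libraries than in either Ctrl library, by 0.63 on the log2 scale. An exact permutation test of this difference cannot go below 0.333 in the design, and no other test of it was run.

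Sparc and Tnc showed the largest rises. Tnc (chr4:63959785-64047015), which encodes an adhesion-modulating glycoprotein of wounds and developing tissue, had 23.4 and 26.6 CPM in the Ctrl libraries against 68.2 and 50.1 CPM in the WC1 libraries. The lower WC1 library exceeded both Ctrl libraries. The mean was 25 ± 2.26 CPM in Ctrl and rose to 59.2 ± 12.8 CPM in WC1 (± SD, n = 2 per group), which is a 2.36-fold difference and 1.20 ± 0.16 (SE) in log2 fold change (adjusted p = 0.019 in limma). It was the member with the fewest reads, between 1602 and 4164 per library. Sparc (chr11:55394159-55420080), whose product binds collagen and regulates its assembly, had 1305 and 1533 CPM in the Ctrl libraries against 2592 and 2984 CPM in the WC1 libraries. The groups did not overlap, and the gap between them was wider than the gap within either group. The mean was 1419 ± 161 CPM in Ctrl and rose to 2788 ± 277 CPM in WC1 (± SD, n = 2 per group), which is a 1.97-fold difference and 0.98 ± 0.17 (SE) in log2 fold change (adjusted p = 0.028 in limma).

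Postn was the member that fell. Postn (chr3:54359267-54391041), which encodes a fasciclin-domain protein made by activated fibroblasts that supports collagen fibre assembly, had 1149.8 and 997 CPM in the Ctrl libraries against 718 and 504 CPM in the WC1 libraries. Both WC1 libraries were below both Ctrl libraries, and the second was the lower of them. The mean moved from 1074 ± 108 to 611 ± 151 CPM (± SD, n = 2 per group) and the log2 fold change was -0.83 ± 0.20 (SE, limma adjusted p = 0.049). This call stood close to the threshold. The adjusted p was 0.051 in plain CPM and 0.062 in TPM, with log2 fold changes of -0.76 and -0.69, and in TPM 3.88% of all genes were called lower.

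The thrombospondins, trimeric proteins known for inhibiting angiogenesis and, for Thbs1, for activating latent TGFβ, differed in their values. Thbs1 (chr2:118111876-118127133) had 150.1 and 196 CPM in the Ctrl libraries against 327 and 259 CPM in the WC1 libraries, without overlap. The mean was 173 ± 32.5 CPM in Ctrl and rose to 293 ± 48.0 CPM in WC1 (± SD, n = 2 per group), which is 0.76 ± 0.17 (SE) in log2 fold change (adjusted p = 0.045 in limma). Thbs2 (chr17:14665500-14694262) had 109.7 and 109 CPM in the Ctrl libraries against 108 and 79.1 CPM in the WC1 libraries. The first WC1 library was close to the Ctrl libraries and the second was well below them. The log2 fold change of Thbs2 was -0.24 ± 0.15 with a 95% interval from -0.64 to 0.16 (limma adjusted p = 0.31). It was -0.47 and called without WC1 1 (limma adjusted p = 0.0043) and -0.02 without WC1 2. In TPM, Thbs1 was 1.40 and 1.83 times as abundant as Thbs2 in Ctrl and 3.09 and 3.35 times in WC1. This ratio was higher in both WC1 libraries than in both Ctrl libraries, by 1.01 on the log2 scale.

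Fn1 (chr1:71585473-71653280) encodes fibronectin and was not called. It had 1432 and 1562 CPM in the Ctrl libraries against 2101 and 1486 CPM in the WC1 libraries. The first WC1 library was above both Ctrl libraries and the second lay between them, whereas in TPM both were above. The means were 1497 ± 92.1 and 1794 ± 435 CPM (± SD, n = 2 per group), and the log2 fold change was 0.24 ± 0.21 with a 95% interval from -0.29 to 0.77 (limma adjusted p = 0.44). Without WC1 1 it was -0.01, and without WC1 2 it was 0.49 and called (limma adjusted p = 0.032). The ratio of Fn1 to Sparc in TPM was 0.357 and 0.330 in Ctrl and 0.265 and 0.163 in WC1, lower in both WC1 libraries. Splice forms of Fn1 were not resolved in these gene-level values.

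**Figure D3:**
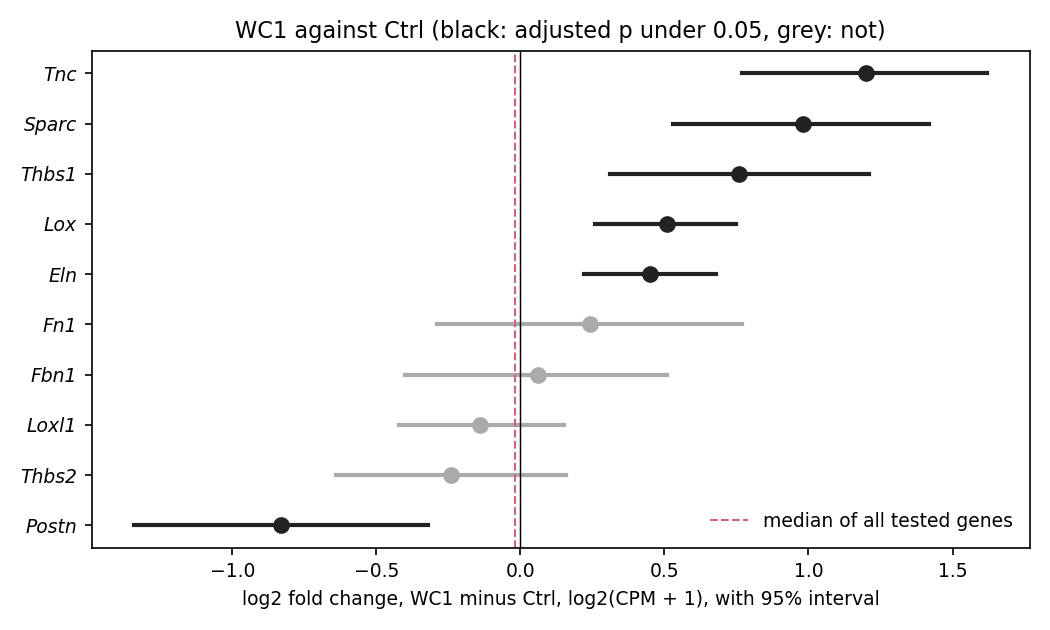
Points give the log2 fold change (WC1 minus Ctrl) on the log2(CPM + 1) scale for each gene, bars its 95% interval from limma, and the dashed line the median of all tested genes (-0.02). Black marks the 6 genes with an adjusted p under 0.05, with Tnc at 1.20 and Postn at -0.83 as the extremes, and grey marks the 4 genes whose intervals cross 0.

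The spread between the WC1 libraries was shared by several members. WC1 1 exceeded WC1 2 by between 0.44 and 0.51 on the log2 scale for Fn1, Postn, Tnc, Thbs2 and Fbn1, and by 0.33, 0.26 and 0.20 for Thbs1, Loxl1 and Lox. Sparc went the other way, with WC1 1 lower by 0.20, and the WC1 libraries were level for Eln. The Ctrl libraries differed by at most 0.38, for Thbs1. Counting error was between 0.23% and 2.5% of the value for each gene and library. The call of every called member depended on both Ctrl libraries. Without Ctrl 1, 0 members were called in limma and 4 had an unadjusted p under 0.05, and without Ctrl 2, 0 were called and 6 had an unadjusted p under 0.05. Over all tested genes 6 and 12 were called in these fits, and 18.6% and 22.1% had an unadjusted p under 0.05. In both the spread comes from the WC1 libraries alone. Without WC1 1, 5 members were called higher and 3 lower, but the share of all genes called also rose, to 17.2% higher and 19.5% lower. Without WC1 2, 6 members were called higher and 1 lower, where 10.1% of all genes were called higher and 8.73% lower. The 6 called members kept their direction in each of these fits, which was fixed in advance because their groups did not overlap in CPM. The size of their log2 fold changes ranged from 0.98 to 1.41 for Tnc, 0.86 to 1.09 for Sparc, 0.57 to 0.95 for Thbs1, 0.40 to 0.61 for Lox, 0.35 to 0.55 for Eln and -1.08 to -0.58 for Postn. Without a filter on low values, Tnc was the 1 member called (limma adjusted p = 0.042), the adjusted p of the other 5 lay between 0.054 and 0.085, and of 18132 genes 7.28% were called (4.35% higher and 2.93% lower).

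**Figure D4:**
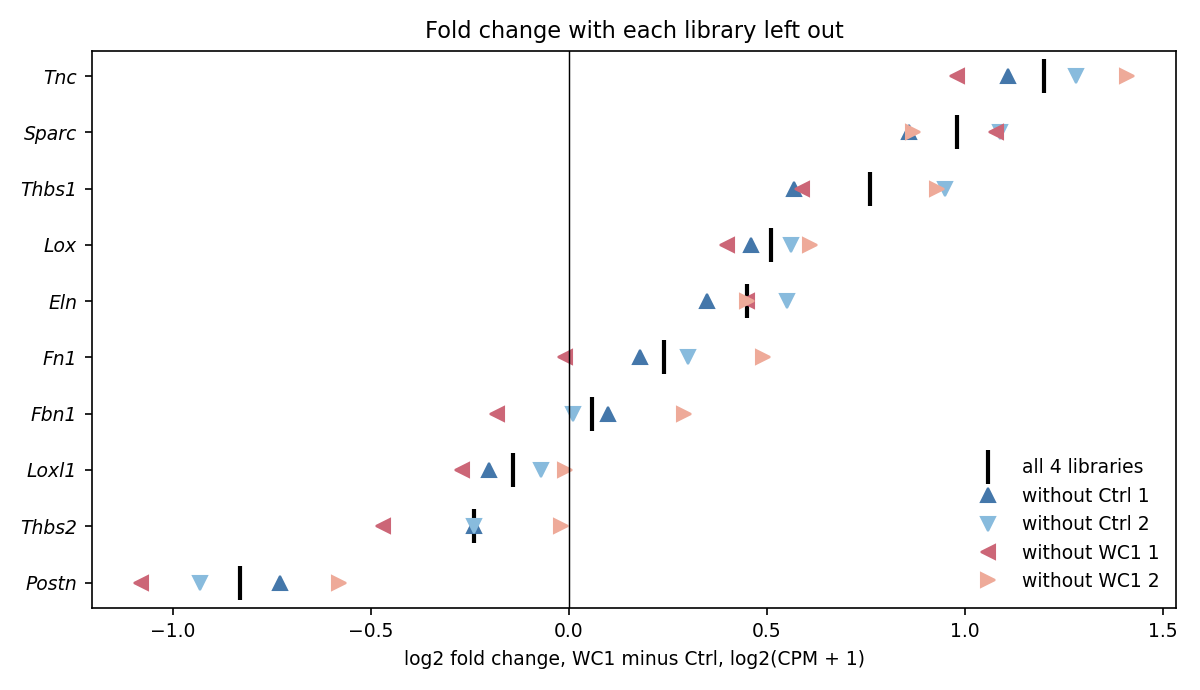
The log2 fold change (WC1 minus Ctrl, log2(CPM + 1)) of each gene is shown with all 4 libraries (black bar) and with each library left out (triangles). Tnc, Sparc, Thbs1, Lox and Eln stay above 0 and Postn stays below 0 in all fits, which is bound to happen because their groups do not overlap. Fbn1 ranges from -0.18 to 0.29 and Fn1 from -0.01 to 0.49.

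Other genes of the same pathways were then examined. The first list held proteins that associate with elastin or fibrillin microfibrils. Of 22 tested, 3 rose (Mmrn2, Fbln5 and Ltbp3) and 6 fell (Fbln1, Adamtsl5, Mfap4, Efemp2, Emilin1 and Emilin2). The median log2 fold change was -0.02, compared to -0.02 for all tested genes, of which 10.2% were called higher and 7.71% lower. The balance of rises and falls depended on the fit. DESeq2 called 7 higher and 6 lower (15.1% and 12.3% of all genes), and edgeR 3 and 5 (10.5% and 7.14%). In limma on TPM the counts were 3 and 3 of 21 (13.7% and 3.88% of all genes). Mmrn2, which encodes a member of the EMILIN family found in endothelial matrix, rose from 32.5 ± 2.63 to 71.2 ± 19.1 CPM (log2 fold change 1.08, limma adjusted p = 0.028). Fbln1, encoding fibulin-1, fell by 0.88 (limma adjusted p = 0.015) and Adamtsl5, encoding a fibrillin-binding protein, fell by 1.12 in log2 fold change (adjusted p = 0.016 in limma). Both fibulins that are required for elastic fibre assembly were called, in opposite directions: the log2 fold change was 0.39 for Fbln5 and -0.59 for Efemp2, which encodes fibulin-4 (limma adjusted p = 0.036 and 0.037).

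In the list of crosslinking and processing enzymes, 3 of 15 tested genes rose (Pcolce2, Tll1 and Tgm2) and 4 fell (Pcolce, Plod2, Atp7a and P4ha1). The median was -0.12, and 10.2% of all tested genes were called higher and 7.71% lower. The genes for the procollagen C-proteinase enhancers moved apart. Pcolce had 233 and 225 CPM in the Ctrl libraries against 148 and 125 CPM in the WC1 libraries, a log2 fold change of -0.75 ± 0.10, while Pcolce2 had 40.9 and 47.4 CPM in the Ctrl libraries against 101 and 150.1 CPM in the WC1 libraries, which is 1.46 ± 0.20 in log2 fold change (adjusted p = 0.019 for each in limma). Atp7a, the copper transporter that supplies lysyl oxidases, fell by 0.55 in log2 fold change (adjusted p = 0.019 in limma). The other lysyl oxidases were not called, with log2 fold changes of -0.23 for Loxl2, -0.29 for Loxl3 and 0.49 for Loxl4.

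The list of other matricellular genes was read beside the 10.2% of all tested genes called higher and the 7.71% called lower. Of 18 tested, 4 rose (Nov, Smoc1, Cyr61 and Wisp2) and 5 fell (Spp1, Thbs4, Tgfbi, Ecm1 and Aebp1), with a median of -0.01. Among them Nov, Cyr61 and Wisp2 belong to the CCN family of matricellular proteins, a grouping made after the values were seen, and its other tested members on the list were not called, with log2 fold changes of -0.10 for Ctgf and -0.25 for Wisp1 (limma adjusted p = 0.78 and 0.39). Nov was 5.21 ± 0.418 CPM in Ctrl and rose to 12.9 ± 1.29 CPM in WC1, and its log2 fold change was 1.16 ± 0.12, and Smoc1, a SPARC-related calcium-binding protein, rose by 1.07 ± 0.12 (limma adjusted p = 0.014 for each). Tgfbi, which like Postn encodes a fasciclin-domain protein, fell by 0.75 ± 0.08 in log2 fold change (adjusted p = 0.014 in limma). Spp1, the gene for osteopontin, had 557 and 428 CPM in the Ctrl libraries against 103 and 53.4 CPM in the WC1 libraries, the largest fall on this list (log2 fold change -2.70, limma adjusted p = 0.016).

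Receptors for these proteins and enzymes that cleave them were not called higher in any case. Of 16 receptors tested, 0 rose and 3 fell in limma (Stab1, Sdc4 and Itga4), where 7.71% of all tested genes were called lower. The median was -0.25. At an unadjusted p under 0.05 the counts were 0 and 6, where 18.9% of all tested genes were lower at that p. edgeR and DESeq2 each called 0 receptors higher and 3 lower, where they called 7.14% and 12.3% of all genes lower. Stab1, a scavenger receptor of macrophages and sinusoidal endothelium that takes up SPARC, had 730.2 and 686 CPM in the Ctrl libraries against 312 and 264 CPM in the WC1 libraries, which is -1.30 ± 0.11 in log2 fold change (adjusted p = 0.012 in limma). Sdc4, a fibronectin co-receptor, fell by 0.61 and Itga4, a fibronectin-binding integrin subunit, fell by 0.49 (limma adjusted p = 0.017 and 0.045). Of 10 tested genes on the list written for elastin and fibronectin degrading enzymes, 0 rose and 6 fell in limma (Mmp3, Mmp12, Ctsk, Mmp2, Mmp14 and Fap). The list median was -0.72, and 7.71% of all tested genes were called lower. At an unadjusted p under 0.05 the counts were 0 and 8, where 18.9% of all tested genes were lower at that p. In edgeR the counts were 0 and 6 (7.14% of all genes lower) and in DESeq2 0 and 9 (12.3% lower). Mmp3 had 100 and 82.0 CPM in the Ctrl libraries against 18.9 and 15.6 CPM in the WC1 libraries, which is -2.33 ± 0.14 in log2 fold change (adjusted p = 0.0062 in limma). Mmp12, the macrophage elastase, had 6223 and 5523 CPM in the Ctrl libraries against 1969 and 864 CPM in the WC1 libraries (log2 fold change -2.17, limma adjusted p = 0.032).

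**Figure D5:**
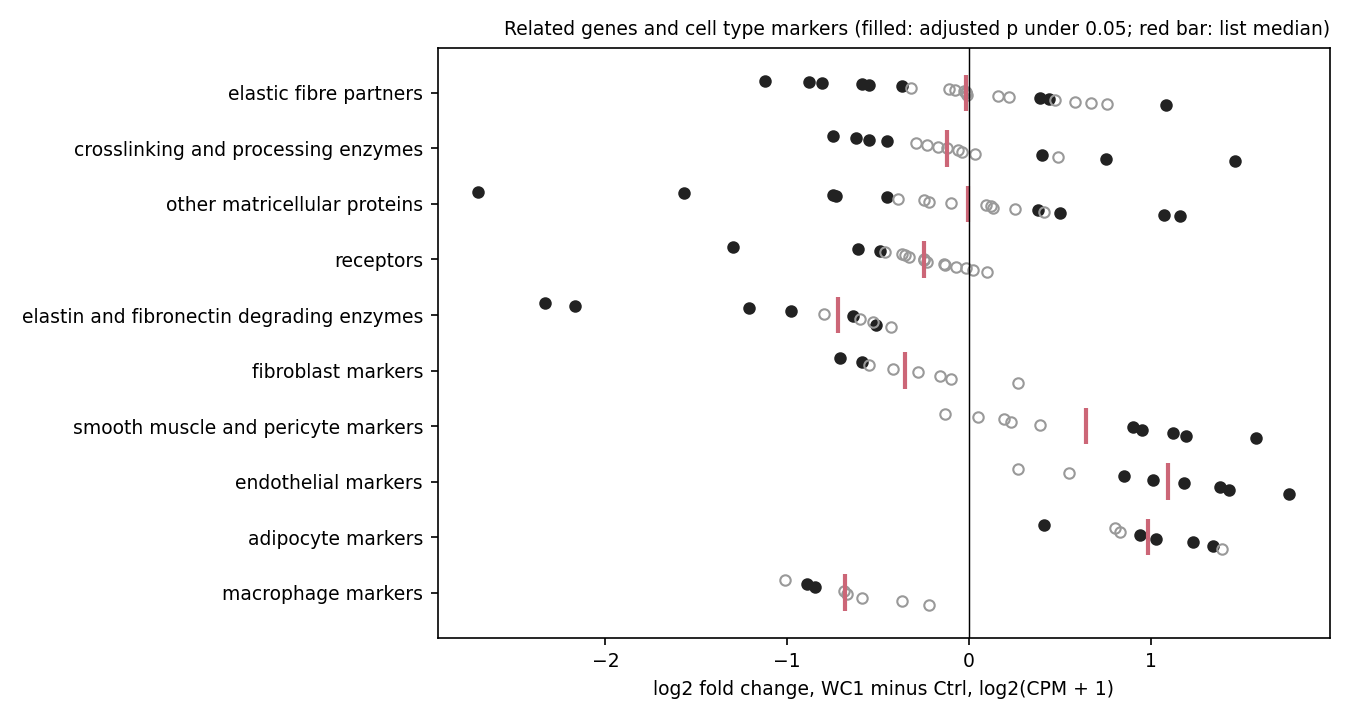
Each point is the log2 fold change (WC1 minus Ctrl, log2(CPM + 1)) of 1 tested gene, filled where the adjusted p was under 0.05, and the red bar is the median of its list. The degrading enzymes lie entirely below 0 with a median of -0.72, the endothelial and adipocyte markers lie entirely above 0 with medians of 1.09 and 0.99, and the elastic fibre partners spread to both sides.

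Markers of the cell types in the tissue also differed between groups. Of all tested genes, limma called 10.2% higher and 7.71% lower, edgeR 10.5% and 7.14%, and DESeq2 15.1% and 12.3%. The counts of markers below are to be read beside these shares. The adipocyte markers covered a wide range of levels. Fabp4, the most abundant, lay between 5375 and 10499 CPM, whereas Retn was at 45.9 and 51.6 CPM in Ctrl. Of 8 fibroblast markers, 0 were called higher and 2 lower (Lum and Pdgfra), with 0 and 4 at an unadjusted p under 0.05 (18.9% of all tested genes were lower at that p), 0 and 2 in edgeR and 0 and 3 in DESeq2. Their summed level was 1639.9 and 1678 TPM in Ctrl and 1574 and 1317 TPM in WC1. Of 10 smooth muscle and pericyte markers, 5 were called higher, Acta2 among them (log2 fold change 1.19), and the summed level was 222 and 236 TPM in Ctrl and 387 and 451 TPM in WC1. Endothelial markers were called higher in 6 of 8, with summed levels of 258 and 298 TPM in Ctrl and 641 and 843 TPM in WC1. Adipocyte markers were called higher in 5 of 8 in limma, 7 in edgeR and 8 in DESeq2, with sums from 20228 to 21898 TPM in Ctrl and from 37232 to 48189.9 TPM in WC1. Macrophage markers were called lower in 2 of 8 in limma (Mrc1 and C1qa) and in edgeR, and in 6 of 8 in DESeq2 and at an unadjusted p under 0.05, with sums from 6950.3 to 7077 TPM in Ctrl and from 4010.1 to 5569 TPM in WC1. The part of these shifts in the values of the members was not tested.

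Markers of other cells that the tissue could hold were checked as well. Mesothelial and T cell markers were called in 0 of 8 and 0 of 6 in limma, with 0 and 0 at an unadjusted p under 0.05 and 0 and 0 in edgeR and DESeq2. The summed mesothelial level was 115 and 86.7 TPM in Ctrl, 65.5 TPM in WC1 1 and 183 TPM in WC1 2, so the WC1 libraries lay on opposite sides of Ctrl. Some mesothelial markers were called higher without WC1 1 and some lower without WC1 2, in fits that leave WC1 a single library. The part of this difference in the gap between the WC1 libraries for the members was not tested. The summed T cell level ranged from 6.80 to 12.5 TPM in Ctrl and from 7.92 to 13.8 TPM in WC1. Of 4 tested platelet markers, of interest because platelets store thrombospondin-1, 2 were called lower, Pf4 (log2 fold change -0.88) and Itga2b (-1.04). Of all tested genes 7.71% were called lower. The values of Ppbp and Gp1bb were -0.36 and 0.76. The summed platelet level was 278 and 315 TPM in Ctrl and 189 and 167 TPM in WC1, of which Pf4, which macrophages can also express, made up 273, 306, 182 and 161 TPM, so that the sum describes Pf4 rather than the list. Acta1 was the 1 skeletal muscle marker called, higher in WC1 at 17.2 and 16.4 CPM compared to 5.76 and 8.10 CPM, whereas Mylpf was between 0.368 and 0.614 CPM in all libraries and Ckm, Myh4, Tnnt3 and Myh1 were too low to be tested. Of the 6 epididymis markers, 5 were listed at 0 in every library, and Adam7 was at 0 in both Ctrl libraries and at 3.02 and 0.0318 CPM in WC1.

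To set the members beside the fibroblasts that make many of them, each TPM value was divided by the summed TPM of the 8 fibroblast markers. This sum was itself lower in both WC1 libraries than in both Ctrl libraries, which raises every ratio in WC1. Its log2 difference (WC1 minus Ctrl) was -0.20, while the median gene in TPM was already higher in WC1 by 0.10. A gene with that median change would therefore also rise after the division. What share of all genes would then separate the groups was not tested, so the separation of the members below has no reference. On this scale both WC1 libraries were above both Ctrl libraries for all members but Postn, including Fn1, Fbn1 and Loxl1, whose groups overlapped in CPM, and Thbs2, whose WC1 libraries were below Ctrl in CPM. For Sparc this ratio was 0.576 and 0.668 in Ctrl and 1.30 and 1.85 in WC1. For Tnc it was 0.00384 and 0.00431 in Ctrl and 0.0127 and 0.0115 in WC1, and for Postn it was 0.427 and 0.366 in Ctrl and 0.303 and 0.262 in WC1. For Fn1 it was 0.206 and 0.221 in Ctrl and 0.344 and 0.301 in WC1. For Fbn1 it was 0.0648 and 0.0598 in Ctrl against 0.0873 and 0.0773 in WC1, and for Loxl1 0.0711 and 0.0765 in Ctrl against 0.0838 and 0.0865 in WC1. Thbs2 differed least, at 0.0216 and 0.0212 in Ctrl and 0.0242 and 0.0218 in WC1.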

How the data were processed

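RNA-seq was performed on poly(A) RNA from epididymal adipose tissue, prepared as directional libraries. The processing notes of the submitters name fastp, HISAT2, StringTie and the build mm10; the read counter, its strand setting and the annotation were not given in the sources used here. The authors deposited 2 matrices. The first is named CPM, but its columns sum to between 97.64% and 104.8% of the total that CPM has by definition, so it is a deposited signal proportional to reads; 100% of its values were whole reads to within 0.01 read. In the second the authors deposited TPM. At the recovered depths 3 reads correspond to between 0.0345 and 0.0492 CPM, for counting error only.

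Genes reaching 0.5 CPM in 2 or more libraries were kept (14106 kept, 10315 removed) and log2(CPM + 1) was tested with limma 3.58.1 in R 4.3.3 (abundance trend, two-sided, Benjamini-Hochberg over all tested genes), WC1 minus Ctrl. Fold changes on this scale understate changes of low genes. edgeR 4.0.16 (quasi-likelihood) and DESeq2 1.42.0 were run on the recovered reads as alternatives. Scripts were tested on simulated data. Groups came from sample titles. Lists were written by hand, and the members and lists were chosen with earlier results of these data known. Named genes were all members, the 3 list genes with the smallest p in each pathway list, the nearest profile of each member and the 2 most abundant markers per list; others were named after their values were seen, to complete a count or single out a large change. Locations and upstream sequence are from RefSeq (GRCm38.p6). By GENCODE M21, 6 members (Fn1, Tnc, Thbs1, Eln, Fbn1 and Lox) overlap 1 gene each on the opposite strand, whose reads cannot be told apart if counting ignored strand. Of those genes Apol7d (beside Fn1) is in the matrix, below 0.5 CPM in every library.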

Additional observations from a re-analysis of the deposited data

How the results depend on the processing

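Of 150 values (10 members, 15 alternatives), 125 kept their direction and their side of the threshold, 19 calls were lost (12 with a library left out) and 3 were gained. The lost calls were those of Postn (5), Sparc, Thbs1, Eln and Lox (3 each) and Tnc (2), each out of 15 alternatives. For the members not called, a value that was kept meant staying not called. The sign changed for Fn1 (-0.01) and Fbn1 (-0.18) without WC1 1 and for Loxl1 in TPM (0.0032), none of them called. The median of the members lay between 0.20 and 0.49. With a library left out, the log2 difference in the ratio ranged from -0.63 to -0.16 for Fbn1 to Eln, -1.07 to -0.38 for Fn1 to Sparc, -0.66 to -0.61 for Loxl1 to Lox and 0.81 to 1.20 for Thbs1 to Thbs2. In TPM the median of all genes moved up by 0.12, to 0.10, and that of the members was 0.49. With a WC1 library left out, Fbn1 lay between -0.18 and 0.29.

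Without a filter on low values, 788 genes were higher and 532 lower, 1 and 0 members, 3 and 13 pathway list genes and 11 marker genes higher, with more genes tested by construction; the cause of the fewer calls was not tested. In TPM 552 genes were lower, 0 members were lower and 15 pathway list genes were lower; in plain CPM 0 members and 833 genes were lower. At an unadjusted p under 0.05 these 3 limma fits held 6 members each, and 31.0% (no filter), 38.0% (TPM) and 37.4% (plain CPM) of all genes. Of the calls over all genes 57.0% were higher, against 77.9% in TPM and 67.2% in plain CPM. DESeq2 called 1736 genes and 11 marker genes lower. With a library left out, counts ranged from 2 to 2424 genes higher and 4 to 2748 lower, 0 to 6 members higher and 0 to 3 lower, 0 to 15 pathway list genes higher and 0 to 40 lower, and 0 to 29 marker genes higher and 0 to 16 lower. The lowest came without Ctrl 1 or Ctrl 2. A group left with a single library is assumed to vary like the other.

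The titles number the libraries 1 and 2 in both groups, but nothing says that numbers pair the mice. The difference between libraries 1 and 2 correlated between groups with r = 0.19 across genes, and 2 pairs cannot establish a pairing. In a fit that held the number as a replicate block, 5 members were higher and 1 lower, with 1769 genes higher and 1497 lower, and 5 of 8 macrophage markers were lower. The limit set by 2 libraries per group was not compared with that set by depth, which was not varied.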

Other observations

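The profiles of the members across the 4 libraries were compared with those of 90 other genes of the members and pathway lists, as the distance between log2(CPM + 1) values centred on each gene's mean. With 4 libraries this distance reflects the difference between groups and the gaps within Ctrl and within WC1, and it is given as a description. The nearest genes were Fstl1 for Thbs2 (distance 0.03), Ltbp3 for Eln (0.07), Cyr61 for Lox (0.07), Mfap2 for Fn1 (0.11), Ctss for Postn (0.11), Fbln2 for Loxl1 (0.11), Thbs3 for Fbn1 (0.17), Nov for Tnc (0.18), Smoc1 for Sparc (0.23) and Fbn2 for Thbs1 (0.26). Ltbp3, which encodes a protein that holds latent TGFβ in the matrix, had 300.4 and 342 CPM in the Ctrl libraries against 419 and 449.9 CPM in the WC1 libraries. Cyr61 had 60.9 and 69.0 CPM in the Ctrl libraries against 96.7 and 87.6 CPM in the WC1 libraries. Ctss, the gene for cathepsin S, had 2529 and 2334 CPM in the Ctrl libraries against 1737 and 1125 CPM in the WC1 libraries, and it was not called (limma adjusted p = 0.081).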
